A study of Mus musculus with 6 samples.

Results

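Podocyte genes were examined in whole kidneys of 13-day-old mice with and without deletion of the transferrin receptor TfR1 in the nephron lineage. The group held 8 of the 24422 genes in the count tables and was chosen by symbol: Nphs1, Podxl, Wt1, Synpo, Ptpro, Plce1, Cdkn1c and Magi2. All 8 were found and all 8 passed the filter on low counts, so that each had an adjusted p. Of these, Wt1 rose and Cdkn1c fell in TfR1 knockout kidneys, and the remaining 6 did not pass the test.

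The podocyte is the epithelial cell that wraps the glomerular capillary and holds back plasma protein. Its interlocking foot processes are bridged by the slit diaphragm, a junction built on nephrin, and are shaped by actin and coated by a negatively charged sialomucin. Podocytes arise from Six2+ nephron progenitors, as do the tubules from proximal segment to distal tubule, and they leave the cell cycle as they mature under the control of Wt1 and other transcription factors.

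The study asked how the kidney takes up iron during development, and compared 3 Control kidneys (genotype wild type) with 3 kidneys labelled TfR1KO;Six2Cre (genotype Tfr1f/f;SixCre), called TfR1 knockout here. All 6 mice were C57BL/6, at postnatal day 13, on an iron sufficient diet of 220 ppm iron, and the 3 kidneys of a group were biological replicates. In the knockout, exons 3 and 4 of the receptor gene Tfrc are flanked by loxP sites and are removed by a Cre expressed from Six2 in nephron progenitors. This leaves the gene intact in collecting duct, stroma, endothelium and blood cells, though the study reports no expression of the receptor in stroma. The study also describes scattered nephron cells that escaped deletion. RNA of whole kidney was sequenced, with 16591156 to 22898008 reads counted in genes per library.

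Tfrc was counted at 5534, 6485 and 3667 normalized reads in Control 1, 2 and 3 and at 6976, 4045 and 5898 in TfR1 knockout 1, 2 and 3 (DESeq2 adjusted p = 0.853). These counts cover the whole gene and all cell types, so they did not separate exons 3 and 4 and could not check the labels. The podocyte markers Nphs1, Podxl, Wt1 and Synpo had reads in every library. Control 3 stood apart from Control 1 and Control 2: all 9 endothelial and all 5 mesangial and pericyte markers were highest there among the Controls, and all 7 tubule markers were lowest. Across the 16509 genes tested by DESeq2, 7.74% were higher and 7.18% lower in TfR1 knockout at an adjusted p under 0.05, and with a fold of at least 2 as well, 4.41% were higher and 4.46% lower. Under edgeR's quasi-likelihood test, which was stricter on 3 against 3 libraries, 3.22% of 15308 genes were higher and 2.80% lower.

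A normalized count, used throughout, is a read count divided by DESeq2's size factor for its library, and a log2 fold change is TfR1 knockout against Control with its standard error (SE). In bulk RNA of whole kidney, fewer podocytes and less RNA per podocyte cannot be told apart. Against the shares above, 1 of the 8 podocyte genes rose (Wt1) and 1 fell (Cdkn1c) under DESeq2, and the same genes passed under edgeR and with the added fold of 2. Each of these 2 was also the only gene in its direction whose groups did not overlap, where 16.9% of all tested genes lay higher in every TfR1 knockout library than in any Control and 16.9% lay lower. The median log2 fold change of the 8 was 0.085, beside 0.00715 over all genes tested, and it was -0.17 without Control 3 and 0.29 without Control 2.

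**Figure D1:**
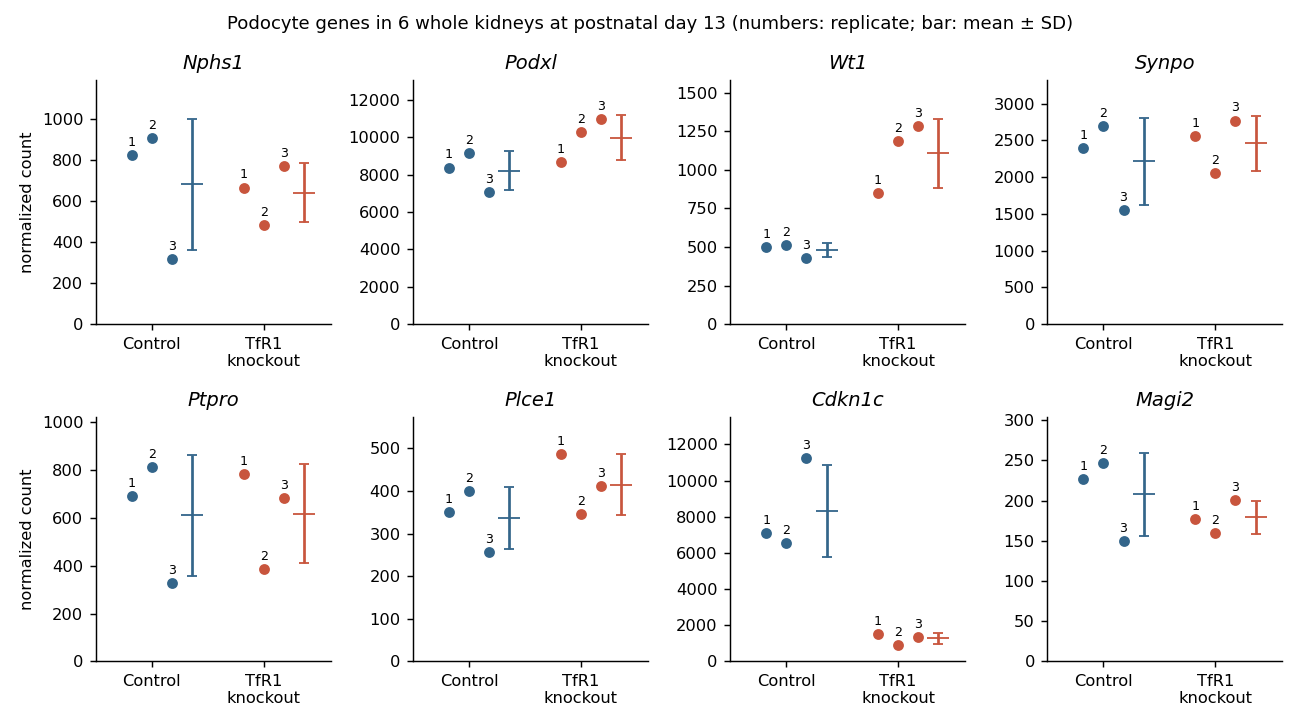
Normalized count (vertical axes, each from 0) of the 8 podocyte genes in each library; the numbers beside the points are replicates and the bars show mean ± SD of 3. Wt1 lay between 427 and 511 in Control and between 851 and 1283 in TfR1 knockout, Cdkn1c lay between 6567 and 11233 in Control and between 901 and 1540 in TfR1 knockout, and the groups of the other 6 genes overlapped.

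Promoters were read for the members that the RefSeq table holds, Nphs1, Ptpro, Plce1 and Magi2, and for Kirrel2, the slit diaphragm gene that lies back to back with Nphs1. Each runs from 250 bases before to 50 bases after the annotated start (mouse build GRCm38.p6, 300 bases). Those with a GNGTGGGNG match are shown because Wt1, which encodes a zinc finger factor that binds GC-rich sites of this type, was the member that rose. Capitals mark matches to GNGTGGGNG, a core that Wt1 and the Egr factors share, on either strand, and to GGGAGGGA. Lower case is the rest of the promoter, 5′ to 3′ on the strand of the gene.
Nphs1, chr7:30459808-30460107, plus strand: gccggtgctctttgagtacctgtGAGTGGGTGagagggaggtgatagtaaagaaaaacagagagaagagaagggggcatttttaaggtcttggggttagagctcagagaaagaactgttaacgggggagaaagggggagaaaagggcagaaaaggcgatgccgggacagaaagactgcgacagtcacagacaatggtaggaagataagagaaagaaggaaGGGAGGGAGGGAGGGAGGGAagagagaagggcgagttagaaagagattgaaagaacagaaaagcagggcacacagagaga
Magi2, chr5:19226796-19227095, plus strand: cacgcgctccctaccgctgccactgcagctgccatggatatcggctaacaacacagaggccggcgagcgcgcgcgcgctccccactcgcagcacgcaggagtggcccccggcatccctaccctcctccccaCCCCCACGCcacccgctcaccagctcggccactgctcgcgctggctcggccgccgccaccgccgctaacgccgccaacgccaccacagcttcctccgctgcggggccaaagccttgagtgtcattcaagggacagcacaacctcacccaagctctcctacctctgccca
Kirrel2, chr7:30457466-30457765, minus strand: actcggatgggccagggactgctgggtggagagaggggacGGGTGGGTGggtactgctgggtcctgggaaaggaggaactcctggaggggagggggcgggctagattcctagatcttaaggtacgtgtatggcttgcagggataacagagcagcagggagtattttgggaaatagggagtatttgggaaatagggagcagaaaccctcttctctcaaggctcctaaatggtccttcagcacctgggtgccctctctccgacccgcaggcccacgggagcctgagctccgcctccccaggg

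The Nphs1 promoter held 1 GNGTGGGNG match 227 bases before the start and 4 GGGAGGGA matches that overlap each other, 30 to 18 bases before it. It was purine-rich, with A or G at 77.7% of its bases against a median of 50.3% over 32544 promoters of this length, and only 0.0338% of promoters reached that share. In the first of the 2 Magi2 promoters the match lay on the opposite strand, 119 bases before the start, and in Kirrel2 it lay 210 bases before. A GNGTGGGNG match is common, in 14.3% of all promoters, while GGGAGGGA was found in 6.49%. Also searched on both strands was TAATTA (5.29% of promoters), the core bound by LIM homeodomain factors such as Lmx1b, which matched once, in the second Magi2 promoter. The promoters of Ptpro and Plce1 held none of these 3 motifs. A match is a stretch of letters, and no binding was measured here.

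Nphs1 encodes nephrin, the immunoglobulin-family protein that spans the slit diaphragm (mm9 chr7:31243334-31272242, plus strand). Its normalized counts were 824.5, 904.4 and 315.4 in Control 1, 2 and 3 and 665.3, 484.9 and 771.0 in TfR1 knockout 1, 2 and 3. The groups overlapped, and Control 3 lay below all other libraries. Nphs1 did not pass, with a log2 fold change of -0.09 (SE 0.39, 95% interval -0.86 to 0.68, DESeq2 adjusted p = 0.915, edgeR 0.888). Leaving out Control 3 moved the value to -0.43 (DESeq2 adjusted p = 0.274) and leaving out Control 2 moved it to 0.16, so the sign of Nphs1 rested on single libraries. An antisense gene, Nphs1as, shares 597 of the 5280 exon bases of Nphs1, and because the strand setting of the counting is not given in the sources used here, reads of the pair cannot be told apart.

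Podxl encodes podocalyxin, the sialomucin that coats the foot processes and is also made by endothelial cells (mm9 chr6:31469488-31513981, minus strand). It had the highest count of the members over the 6 libraries together, though not in Control alone, at 8389, 9165 and 7083 normalized counts in Control 1, 2 and 3 and 8689, 10285 and 11006 in TfR1 knockout 1, 2 and 3. TfR1 knockout 2 and 3 lay above every Control library, while TfR1 knockout 1 lay below Control 2. The log2 fold change was 0.28 (SE 0.18, 95% interval -0.07 to 0.64, DESeq2 adjusted p = 0.317), which did not pass. In folds, the interval ran from 0.95 to 1.56. The 9 endothelial markers summed to 22381 to 35861 normalized counts in Control and 23969 to 32872 in TfR1 knockout, and their part in the level of Podxl was not tested.

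Ptpro encodes a receptor tyrosine phosphatase of the foot process surface, GLEPP1 (mm9 chr6:137200820-137413150, plus strand). Its normalized counts were 690.1, 811.7 and 328.3 in Control 1, 2 and 3 and 784.6, 387.7 and 682.0 in TfR1 knockout 1, 2 and 3. Control 3 and TfR1 knockout 2 were the low library of each group, at less than the other 2 by a wide margin, and the ranges lay over each other. The log2 fold change of 0.02 (SE 0.39, 95% interval -0.75 to 0.79, DESeq2 adjusted p = 0.983) did not pass. Its sign turned to -0.28 without Control 3 and to -0.19 without TfR1 knockout 1.

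Synpo encodes synaptopodin, which binds actin and alpha-actinin in the foot process (chromosome 18). It was counted at 2392, 2690 and 1555 in Control 1, 2 and 3 and at 2553, 2048 and 2769 in TfR1 knockout 1, 2 and 3, as normalized counts. Only Control 3 lay outside the range from 2048 to 2769. The change did not pass (log2 fold change 0.15, SE 0.26, 95% interval -0.35 to 0.65, DESeq2 adjusted p = 0.756), and without Control 3 it was -0.05.

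Plce1 encodes phospholipase C epsilon, a signalling enzyme mutated in early nephrotic syndrome (mm9 chr19:38598687-38859588, plus strand). Control 1, 2 and 3 held 350.4, 400.8 and 257.3 normalized counts and TfR1 knockout 1, 2 and 3 held 487.3, 345.4 and 412.4. TfR1 knockout 1 and 3 lay above every Control library and TfR1 knockout 2 lay among them. The log2 fold change was 0.30 (SE 0.25, 95% interval -0.19 to 0.80, DESeq2 adjusted p = 0.464), which did not pass.

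Magi2 encodes a scaffold protein that holds nephrin at the slit diaphragm, and is also used at neuronal synapses (mm9 chr5:18732864-20210616, plus strand). It had the lowest counts of the members, at 226.7, 246.3 and 149.6 normalized counts in Control 1, 2 and 3 and 177.0, 159.9 and 200.5 in TfR1 knockout 1, 2 and 3. Control 1 and 2 lay above every TfR1 knockout library and Control 3 below all of them. The change did not pass (log2 fold change -0.21, SE 0.27, 95% interval -0.75 to 0.32, DESeq2 adjusted p = 0.663).

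For the 6 genes that did not pass, the log2 fold changes ran from -0.21 to 0.30 and the 95% intervals from -0.86 to 0.80 in all. For each gene, the data did not resolve changes that lie within its own interval. The intervals of Nphs1 and Ptpro were widest (1.55 for Nphs1 from end to end) and that of Podxl was narrowest, at 0.71.

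Wt1 encodes the zinc finger transcription factor of podocytes, which is also active in nephron progenitors and in the parietal cells of Bowman's capsule (mm9 chr2:104966686-105013773, plus strand). Its normalized counts were 502.1, 510.8 and 427.3 in Control 1, 2 and 3 and 851.2, 1186 and 1283 in TfR1 knockout 1, 2 and 3. Every TfR1 knockout library lay above every Control library. The rise was 2.30-fold (95% interval 1.70 to 3.12), a log2 fold change of 1.20 with an SE of 0.22 (DESeq2 adjusted p = 3e-06, edgeR 0.0159, limma-voom 0.0187). Its size was larger than the spread between replicates, which was 45.9 (SD, n = 3) around a Control mean of 480.1 and 226.4 around a TfR1 knockout mean of 1107. Without Control 3 and TfR1 knockout 2 it still passed, as it did in each of the 17 other fits, at log2 fold changes of 1.08 to 1.36.

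Next to Wt1, and chosen here after its values were seen, the long noncoding gene Wt1os starts 19 bases away on the opposite strand. It was counted at 27.2, 23.6 and 39.8 normalized reads in Control 1, 2 and 3 and at 55.7, 85.7 and 78.5 in TfR1 knockout 1, 2 and 3, again with no overlap. The log2 fold change of 1.28 (SE 0.39) passed DESeq2 (adjusted p = 0.011) and not edgeR (0.0725). No exon of Wt1 overlaps an exon of another gene in GENCODE vM1 (mm9). The annotation and strand setting of the counting are not given in the sources used here, and sharing of reads between Wt1 and Wt1os was not tested.

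The 6 nephron progenitor markers summed to 1134 to 1516 normalized counts in Control and 1021 to 1190 in TfR1 knockout, Six2 itself lay between 3.64 and 7.96 normalized counts in all libraries, and their part in the level of Wt1 was not tested, nor was that of parietal cells. Of the 6, Eya1 rose (log2 fold change 2.11, DESeq2 adjusted p = 0.000418, edgeR 0.0311) and Meox1 fell (log2 fold change -0.90, DESeq2 adjusted p = 0.00827, edgeR 0.0642). Eya1 rested on few reads, 22, 10 and 9 in Control 1, 2 and 3 and 47, 36 and 72 in TfR1 knockout 1, 2 and 3. Under DESeq2, 7.74% of all genes tested were higher and 7.18% lower.

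Cdkn1c encodes p57Kip2, a cyclin-dependent kinase inhibitor that is switched on as podocytes leave the cell cycle and is also made by stromal cells of the developing kidney (mm9 chr7:150644255-150646955, minus strand). It was counted at 7113, 6567 and 11233 in Control 1, 2 and 3 and at 1540, 901 and 1360 in TfR1 knockout 1, 2 and 3, as normalized counts. The lowest Control library lay far above the highest TfR1 knockout library. Cdkn1c fell by 2.71 on the log2 scale (SE 0.30, 95% interval -3.29 to -2.13), or 6.55-fold lower with an interval of 4.38 to 9.80 (DESeq2 adjusted p = 1.63e-17, edgeR 0.00505, limma-voom 0.00472). It passed in each of the 17 other fits, at log2 fold changes of -2.88 to -2.24, the smallest change being the one without Control 3 and TfR1 knockout 2.

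Control 3, the library with the highest Cdkn1c, was also the one with the highest endothelial and mesangial markers. The 5 mesangial and pericyte markers summed to 12017, 12616 and 22285 normalized counts in Control 1, 2 and 3 and to 11203, 14004 and 15563 in TfR1 knockout 1, 2 and 3. Of these 5, Itga8, an integrin of mesangial cells, fell (log2 fold change -1.98, DESeq2 adjusted p = 4.31e-05, edgeR 0.0384) and the other 4 did not pass, with a median of -0.11 over the list. Under DESeq2, 7.18% of all genes tested were lower. The part of stromal cells in the fall of Cdkn1c was not tested.

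Cdkn1c lies in an imprinted gene cluster, so its neighbours, taken by position after its own values were seen, were read as well. Of 19 other genes within 500 kb on either side in mm9, 1 fell under DESeq2, where 7.18% of all genes tested were lower. The other 18 did not pass, and the median log2 fold change was -0.22. The gene that fell was Slc22a18, an imprinted transporter gene (log2 fold change -1.32, DESeq2 adjusted p = 0.00303, edgeR 0.0621). Kcnq1, which hosts the control element of the cluster, did not pass (log2 fold change 0.61, DESeq2 adjusted p = 0.183). The other members of the same inhibitor family, also read after the fact, moved differently: Cdkn1a rose (log2 fold change 3.23, SE 0.27, DESeq2 adjusted p = 6.61e-30, edgeR 0.00204), and Cdkn1b did not pass (log2 fold change 0.33, DESeq2 adjusted p = 0.501).

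The 8 genes also differed in how they varied within a group. Control 3 held the lowest Control value of 7 of the 8 and the highest of Cdkn1c, and TfR1 knockout 2 held the lowest TfR1 knockout value of 6 of the 8. The share of all genes that were lowest in these libraries was not counted. All 7 tubule markers were also lowest of the Controls in Control 3, while all 9 endothelial and all 5 mesangial and pericyte markers were highest. On the log2(normalized count + 1) scale, Nphs1 in Control 3 lay 0.97 below its Control mean, Ptpro 0.79, Synpo 0.47 and Magi2 0.44, while Podxl lay 0.20 and Wt1 0.16 below. Cdkn1c lay 0.48 above. Among 39 other podocyte genes, taken up by role below, 24 were lowest of the Controls in Control 3 and 14 were highest. Of the 8 slit diaphragm genes among these, 3 were lowest there and 5 were highest.

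**Figure D2:**
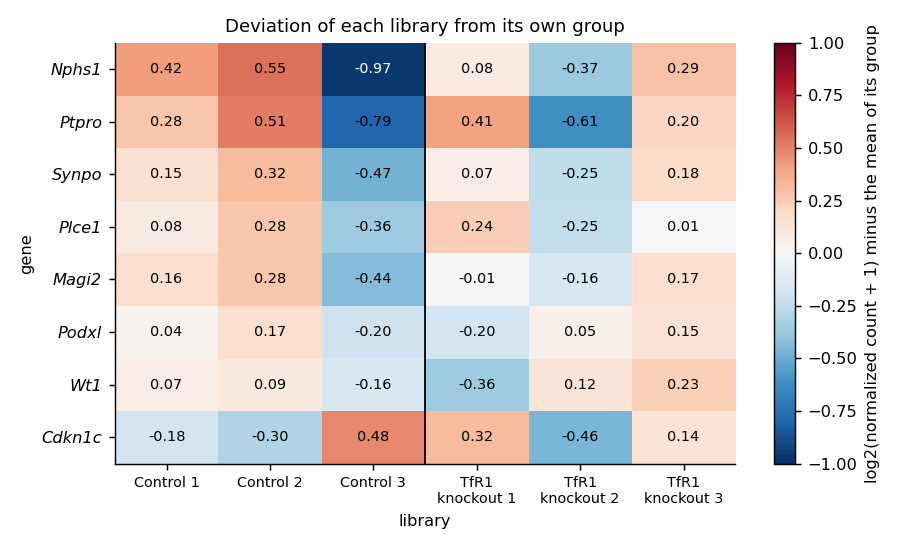
Deviation of each library (columns) from the mean of its own group on the log2(normalized count + 1) scale, for each podocyte gene (rows); red is above and blue below the group mean. In Control 3, 7 genes lay below their group mean, from -0.97 for Nphs1 to -0.16 for Wt1, and Cdkn1c lay 0.48 above.

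The 6 libraries differ in depth, in group and in the levels of cell type markers. Across them, the correlation of log2(normalized count + 1) with Nphs1 was 0.95 for Synpo, 0.93 for Ptpro, 0.92 for Magi2, 0.74 for Plce1 and 0.51 for Podxl (Pearson's r). It was 0.14 for Wt1 and -0.13 for Cdkn1c. Wt1 and Cdkn1c, whose group differences were opposite, had an r of -0.97.

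Set against Nphs1 in the same library, the normalized count of Wt1 was 0.609, 0.565 and 1.35 times that of Nphs1 in Control 1, 2 and 3 and 1.28, 2.45 and 1.66 times in TfR1 knockout 1, 2 and 3. These ranges overlapped, because Nphs1 was low in Control 3. For Cdkn1c the ratio to Nphs1 was 8.63, 7.26 and 35.6 in Control 1, 2 and 3 and 2.32, 1.86 and 1.76 in TfR1 knockout 1, 2 and 3, without overlap. Relative to nephrin, Cdkn1c was thus lower in every TfR1 knockout library, and the 2 groups of Wt1 were not separate.

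The 10 other genes whose pattern was most like the mean of the 8, among 12106 genes whose mean was 100 normalized counts or more, were Cyth2, Rbm14, Stk38, Noa1, Pdf, 4632404H12Rik, Tmem129, Ankrd40, Tbc1d25 and Pde6d (Pearson's r of 0.996 for Cyth2 to 0.975 for Pde6d, over 6 libraries). None of the 10 was in a podocyte or marker list. With Spearman's rho, 6 of the 10 were kept, and 39 genes reached a rho of 1, so 6 libraries do not single out a gene.

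Levels were compared between genes per kilobase of exon. In Control, Cdkn1c was highest at 4301 ± 1321 normalized counts per kilobase (SD, n = 3), followed by Podxl at 1496 ± 192, Synpo at 232 ± 61.7, Nphs1 at 129 ± 60.5, Ptpro at 89.1 ± 36.7, Wt1 at 77.5 ± 7.41, Plce1 at 35.2 ± 7.63 and Magi2 at 26.8 ± 6.60. Cdkn1c, Podxl and Synpo stood apart from each other by more than their SDs, as did Wt1 from Plce1, while the neighbouring levels from Synpo down to Wt1 and those of Plce1 and Magi2 overlapped. In TfR1 knockout, Podxl was highest at 1821 ± 216 and Cdkn1c second at 656 ± 171. Wt1, the sixth gene in Control, was the fourth in TfR1 knockout at 179 ± 36.5, where it overlapped Nphs1 at 121 ± 27.4. This change of place depended on the length used: per kilobase of the longest transcript, Wt1 was already the fourth in Control at 155.3, above Nphs1 at 147.9 and Ptpro at 92.2.

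**Figure D3:**
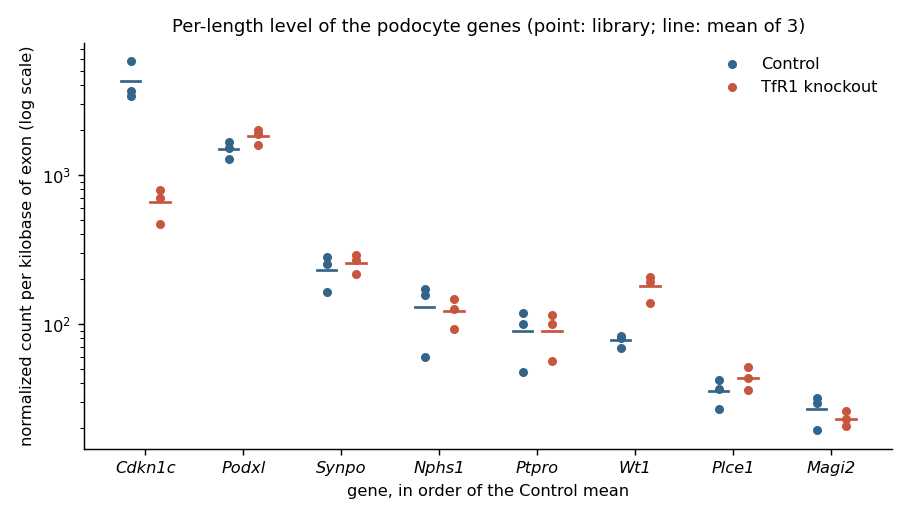
Normalized count per kilobase of exon on a log scale (vertical axis) for the 8 podocyte genes, in order of their Control mean; points are libraries and lines the mean of 3. Cdkn1c had a mean of 4301 in Control and 656 in TfR1 knockout, below Podxl at 1821.

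Of the summed level per kilobase of all 8 genes, Cdkn1c made up 62.8%, 58.6% and 77.6% in Control 1, 2 and 3 and 25.7%, 15.8% and 20.0% in TfR1 knockout 1, 2 and 3. The share of Podxl was 26.1%, 28.8% and 17.2% in Control and 51.1%, 63.5% and 56.9% in TfR1 knockout. Without Cdkn1c, the sum over the other 7 genes was 2183, 2398 and 1677 normalized counts per kilobase in Control 1, 2 and 3 and 2303, 2486 and 2818 in TfR1 knockout 1, 2 and 3. That sum overlapped between the groups and was carried by Podxl.

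Beyond the 8, a further 39 genes known from podocytes were read in 5 lists by role, all of them in the tables and tested. Under DESeq2, 5 rose, 3 fell and 31 did not pass, where 7.74% of all genes tested were higher and 7.18% lower, and their median log2 fold change was 0.12. Under edgeR, 3 rose (Cd2ap, Lama5 and Itga3) and 0 fell, where 3.22% of all 15308 genes tested were higher and 2.80% lower. At an unadjusted p under 0.05, 5 were lower by edgeR. The share of all genes at an unadjusted p was not counted, for this or for the lists below. Many of the 39 genes are also expressed in other kidney cells, and the part of other cells was not tested.

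Among the 8 other slit diaphragm genes, Kirrel2 and Cd2ap rose, Kirrel3 fell and 5 did not pass (median 0.03). The gene of Kirrel2, a nephrin-like protein, starts 625 bases from that of Nphs1 in GENCODE vM1 (mm9). Their RefSeq starts, used for the promoters above, lie further apart. Kirrel2 was counted at 6.60, 6.36 and 0 normalized reads in Control 1, 2 and 3 and 23.9, 21.8 and 26.5 in TfR1 knockout 1, 2 and 3. Its groups did not overlap, at a log2 fold change of 2.44 (SE 0.82, DESeq2 adjusted p = 0.0243, edgeR 0.0924) on 0 to 28 reads per library, and it lost the call in 10 of 17 other fits. Cd2ap, the adaptor that ties nephrin to actin and the gene of highest mean count over all 6 libraries in the list, was counted at 3809, 3695 and 3962 in Control 1, 2 and 3 and 5935, 7958 and 5971 in TfR1 knockout 1, 2 and 3, and rose by a log2 fold change of 0.79 (SE 0.18, DESeq2 adjusted p = 0.000308, edgeR 0.0365). Kirrel3 fell from 139.3, 155.4 and 312.2 normalized counts to 86.5, 29.4 and 30.3 (log2 fold change -2.05, SE 0.52, DESeq2 adjusted p = 0.00146, edgeR 0.0654).

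Of the 8 genes of basement membrane and adhesion, 3 rose, 1 fell and 4 did not pass (median 0.12). Lama5 and Lamb2, chains of the mature glomerular laminin that are shared with tubule and vessel basement membranes, both rose. Lama5 went from 6000, 6321 and 5571 normalized counts in Control 1, 2 and 3 to 10636, 12469 and 12271 in TfR1 knockout 1, 2 and 3 (log2 fold change 0.98, SE 0.15, DESeq2 adjusted p = 2.05e-09, edgeR 0.0172). Lamb2 rose by less (log2 fold change 0.56, SE 0.18, DESeq2 adjusted p = 0.0205, edgeR 0.0876). Itga3, the laminin-binding integrin subunit of podocytes and tubules, rose from 2195, 2075 and 1257 to 4420, 3964 and 4037 (log2 fold change 1.17, SE 0.25, DESeq2 adjusted p = 7.18e-05, edgeR 0.0289). Npnt, a matrix protein that is also made in tubules and had the highest mean count of the list over all 6 libraries, fell (log2 fold change -0.83, SE 0.29, DESeq2 adjusted p = 0.0344, edgeR 0.127), but at 13287 its level in Control 3 lay below TfR1 knockout 1 at 13890. Col4a3, Col4a4 and Col4a5, chains of the glomerular collagen network, did not pass.

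None of the 11 genes of the podocyte cytoskeleton and surface passed DESeq2 (median 0.14) or edgeR, and 1 was lower at an unadjusted p under 0.05 by either, the intermediate filament gene Nes. Actn4, the alpha-actinin of foot processes and the gene of highest mean count over all 6 libraries in the list, had a log2 fold change of 0.22 (SE 0.14, DESeq2 adjusted p = 0.316). None of the 5 other podocyte transcription factors passed (median -0.04). Tcf21, which also marks stroma and had the highest mean count of these over all 6 libraries, was the 1 gene of the list at an unadjusted p under 0.05 by DESeq2, and edgeR had 0 (log2 fold change -0.84, SE 0.41, DESeq2 adjusted p = 0.155, edgeR 0.231).

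Of 7 secreted and other podocyte genes, Ildr2 fell and 6 did not pass (median 0.22). Ildr2 lay at 1397, 1215 and 832 normalized counts in Control 1, 2 and 3 and at 621, 672 and 638 in TfR1 knockout 1, 2 and 3 (log2 fold change -0.84, SE 0.24, DESeq2 adjusted p = 0.00549, edgeR 0.0504). Vegfa, the growth factor that podocytes send to glomerular endothelium and the gene of highest mean count of its list over all 6 libraries, did not pass (log2 fold change 0.22, SE 0.27, DESeq2 adjusted p = 0.635). Of the 9 endothelial markers, 1 rose and 8 did not pass under DESeq2, where 7.74% of all genes tested were higher. The marker that rose was Flt1 (log2 fold change 0.95, DESeq2 adjusted p = 0.0251, edgeR 0.101). Its groups overlapped, with Control 3 at 1447 normalized counts above TfR1 knockout 1 at 1375.

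**Figure D4:**
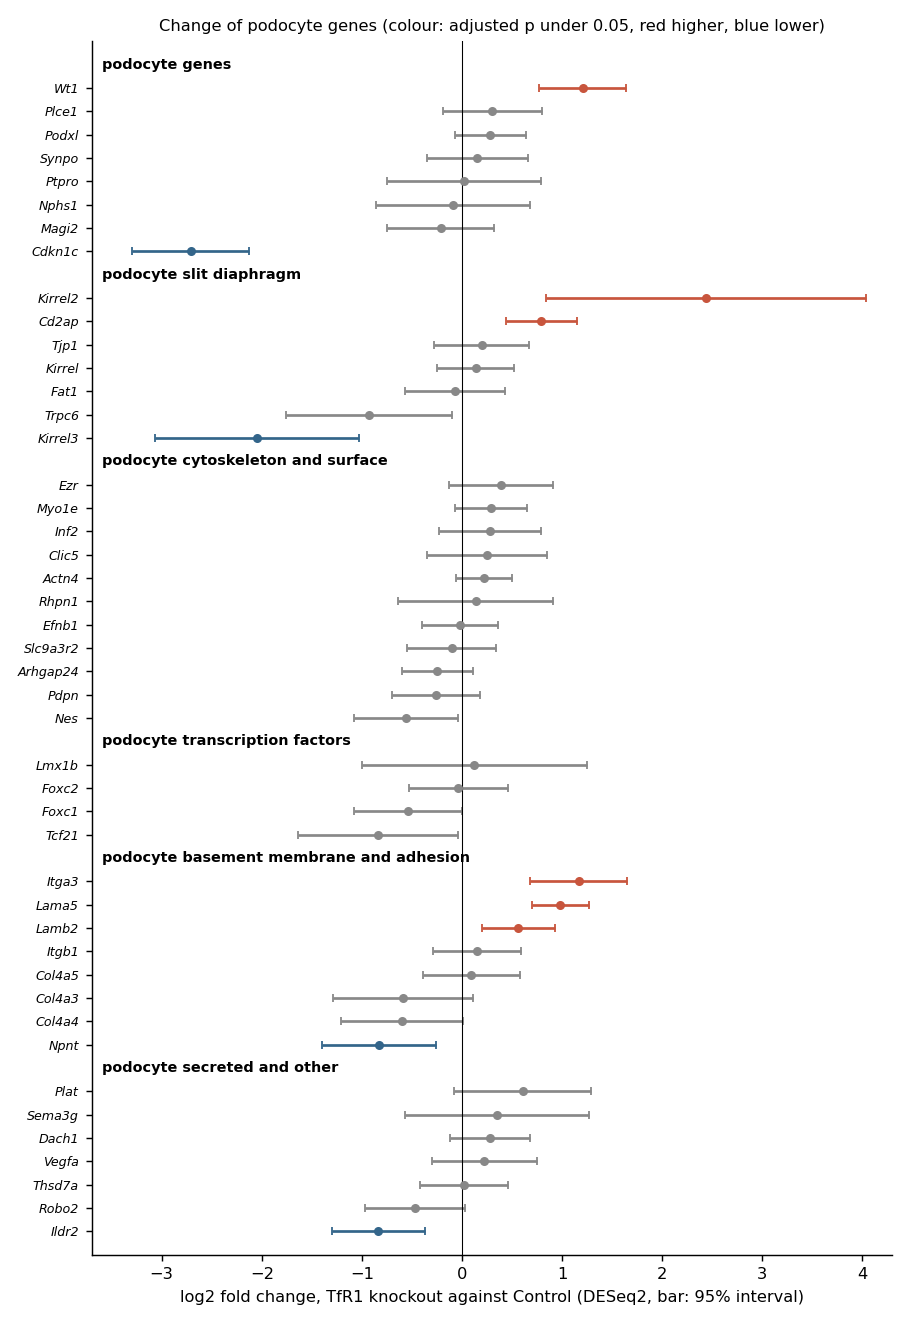
Log2 fold change of TfR1 knockout against Control with its 95% interval (DESeq2) for the 8 podocyte genes and 37 of the 39 further genes in 5 lists; red and blue mark an adjusted p under 0.05, grey the rest. Wt1 at 1.20 and Cdkn1c at -2.71 are the coloured members, and 8 of the others are coloured.

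Control 3 decided part of these counts. Without it, 5 of the 39 rose and 7 fell, the added falls being Col4a3, Col4a4, Foxc1 and Nes. Over all genes, 1234 were higher and 1111 lower in that fit. Without Control 3 and TfR1 knockout 2 together, 6 of the 39 rose and 6 fell, beside 1423 higher and 1365 lower over all genes. The same left-out libraries did not change the calls among the 8. With all 6 libraries, 1 of 7 tubule markers rose and 5 fell (median log2 fold change -1.48), and 2 of 4 macrophage markers rose (median 1.28). Over all genes tested, 7.74% were higher and 7.18% lower.

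**Figure D5:**
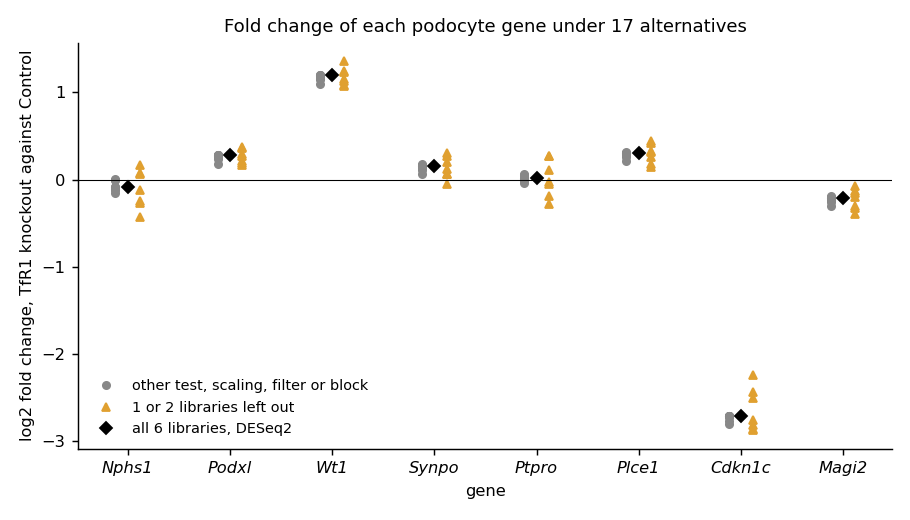
Log2 fold change of each podocyte gene with all 6 libraries (black diamonds, DESeq2), under other tests, scalings, filters and the replicate block (grey points), and with 1 or 2 libraries left out (orange triangles). Wt1 stayed between 1.08 and 1.36 and Cdkn1c between -2.88 and -2.24, while Nphs1, Synpo and Ptpro lay on both sides of 0.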

How the data were processed

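RNA of 6 whole kidneys (3 Control, 3 TfR1 knockout) was isolated with TRIzol and made into Illumina TruSeq libraries from poly-A RNA, per the labels and the study's methods. The authors trimmed reads with Trimmomatic, aligned them to mouse build mm9 with TopHat2 2.0.11 after CASAVA 1.8.2, and counted unique reads per gene with HTSeq, as listed in the submitters' processing notes. The annotation and strand setting of the counting are not given in the sources used here. The deposited values are raw counts per gene symbol, in 1 table per group, and every column was matched to a sample by its label. Groups came from the sample titles.

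The members and lists were chosen with earlier results of these data known. Counts of both tables were joined and fitted over all genes with DESeq2 1.42.0 (R 4.3.3; median-ratio size factors, design by group, Wald test, Benjamini-Hochberg adjustment, independent filtering at 0.05, unshrunken fold changes), the tool the study names. Independent filtering left 16509 genes, whose mean was 3.51 normalized counts or more. Calls needed an adjusted p under 0.05. Alternatives were edgeR 4.0.16 (quasi-likelihood), limma-voom (limma 3.58.1), other size factors, filters, a replicate block by number, and fits that left out 1 library at a time. Leaving out Control 3 and TfR1 knockout 2 together was chosen after seeing the data. The scripts were tested on simulated counts in which 200 of 19980 genes were changed. Of the DESeq2 calls there, 19.4% were unchanged genes, against 7.74% of the edgeR calls. DESeq2 recovered 48.4% of the 2-fold changes and edgeR 27.4%. These shares depend on how many genes change, so they do not carry over directly to the data.

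All 8 members were named. In the further lists every gene that passed and the gene of highest mean were named, and the 10 genes most like the members by Pearson correlation. Some listed genes and a motif were counted or searched but are not reported here by name. Levels per kilobase used the union of exons in GENCODE vM1 (mm9). Promoter sequences are from RefSeq (GRCm38.p6), and the other coordinates are mm9. Replicates are kidneys as labelled, the study describes its controls as littermates, and which samples share a litter is not given in the sources used here. Total counts were 16591156 to 22898008 per library.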

Additional observations from a re-analysis of the deposited data

How the results depend on the processing

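The count of podocyte genes that passed was 2 in all 17 alternative fits, with or without the fold of 2, and the calls of Wt1 (highest adjusted p 0.0187) and Cdkn1c (0.00505) held in each, by DESeq2, edgeR or limma-voom. The median of the 8, 0.085, changed sign with single libraries left out (-0.167 without Control 3 to 0.291 without Control 2). Its moves were smaller than the spread between replicates (SD 0.295). That is a loose bar for leaving out 1 of 3 libraries, so it does not show that the median was stable. Of the 6 genes that did not pass, 3 changed sign: Nphs1 was 0.00922 with the replicate block in DESeq2 and ranged from -0.43 to 0.16 with single libraries left out; Synpo ranged from -0.0513 to 0.31; Ptpro ranged from -0.28 to 0.27, and was -0.0125 with upper-quartile scaling, -0.0437 with total-count scaling and -0.033 without Control 3 and TfR1 knockout 2. The cause was not tested. Scaling by total count moved the median log2 fold change over all genes by -0.104 and split the calls into 996 higher and 1407 lower, against 1277 and 1186; less that shift, which acts on all genes alike, Ptpro was 0.06 and Wt1 1.20. Over all genes, 1277 were higher by DESeq2, 493 by edgeR, 485 by limma-voom, 626 by edgeR with the replicate block and 664 to 1531 with single libraries left out; 1186 were lower, against 428, 456, 604 and 575 to 1674. Of the 39 further podocyte genes, 5 were higher, against 3 by edgeR, limma-voom and both fits with the replicate block. With single libraries left out, 3 to 5 were higher (3 without Control 1, Control 2, TfR1 knockout 2 or TfR1 knockout 3). Of the same 39, 3 were lower, against 0 by edgeR and limma-voom and 6 without Control 3 and TfR1 knockout 2. With single libraries left out, 1 to 7 were lower (1 without Control 1 or Control 2, 7 without Control 3). At an unadjusted p under 0.05, 5 were lower by edgeR and 5 by limma-voom, and the share of all genes there was not counted. The calls of Kirrel2, Lamb2, Npnt, Ildr2 and Kirrel3 were lost in 10, 9, 7, 5 and 3 of the 17 fits, and Cd2ap, Lama5 and Itga3 passed in all 17. Equal replicate numbers did not mark shared deviations (correlations of -0.0378, 0.0548 and 0.0899), so the replicate block pairs samples by number alone; with it DESeq2 called 1085 genes higher and 1087 lower. Per kilobase of the longest transcript, the Control level was 155.3 for Wt1 and 428.9 for Synpo. Depth limits genes of few reads, such as Kirrel2 at 0 to 28 reads per library.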
